A study of Mus musculus with 4 samples.

Results

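The immediate-early genes described here were 10 of the 31055 features of the count table: Fos, Fosb, Jun, Junb, Jund, Egr1, Atf3, Ier2, Nr4a1 and Dusp1. They were chosen by symbol as genes that respond within minutes to activation or to the dissociation of a tissue, and all 10 were found once in the table. The cells came from lung tumors of 4 female mice, in which Lenti-Cre given through the trachea started tumors, switched on the reporter tdTomato and trapped the tumor suppressor Lkb1. All 4 carried Lkb1XTR/XTR. The 2 Restored mice were Rosa26LSL-tdTomato/FLPo-ERT2, with a tamoxifen-dependent recombinase that returns Lkb1, and the 2 Non-Restored mice were Rosa26LSL-tdTomato without it. Tumors grew for 16 weeks, and both groups received tamoxifen (4 mg a dose) for 2 weeks before harvest, so tamoxifen itself was shared. The labels and methods name no promoter for Cre, and the methods give age at tumor initiation only as a range over all lung tumor cohorts, that of young adult mice. Tumors were digested with collagenase IV, dispase and trypsin for 30 min at 37 °C, and live cells were sorted before droplet capture. Cells of the 4 mice share 1 matrix and were not assigned to mice here. The matrix was therefore treated as 1 sample: no Restored and Non-Restored values are given, no difference has a replicate check, and the parts of the mice in any value cannot be told apart. All intervals are exact 95% intervals and cover counting error only.

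Fos and Jun proteins pair through leucine zippers to form AP-1, a transcription factor that binds the TGANTCA site. Their genes are poised in resting cells and are transcribed within minutes of growth factor, cytokine, calcium or stress signals that reach them through MAP kinases. Most of these mRNAs decay quickly, so a high level can mark recent signaling, less so for Jund, the least inducible gene of the family. Fos and Fosb need a Jun partner, whereas Jun, Junb and Jund can also pair among themselves. Atf3 is a stress-induced member of the wider ATF family, Egr1 is a zinc finger factor, Nr4a1 is an orphan nuclear receptor, Ier2 is a nuclear protein induced with them, and Dusp1 is a phosphatase that switches MAP kinases off. Enzymatic digestion of tissue at 37 °C is known to induce the same genes. The cells in this series were digested in one way, so induction in the lung and induction by digestion cannot be told apart in any value that follows.

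On GRCm38, the genes lay on chromosomes 12 (Fos), 7 (Fosb), 4 (Jun), 8 (Junb, Jund and Ier2), 18 (Egr1), 1 (Atf3), 15 (Nr4a1) and 17 (Dusp1). Jun, Junb, Jund and Ier2 are genes of 1 exon, and the GENCODE vM21 transcripts used for the others held 2 (Egr1) to 8 (Nr4a1) exons. The Dusp1 model overlaps AC122252.4 and AC122252.1 on its own strand, so reads shared with them could not be checked. Promoters of 300 bases were found for 8 of the 10 in the RefSeq table (GRCm38.p6), Egr1 and Ier2 being the others. The Jund window (chr8:70697489-70697788) lay upstream of the GENCODE gene, which starts at 70698949, so its matches may not concern that start. The CREB half-site TGACG, read on either strand, was present in 6 of these 8 promoters (Fos, Fosb, Junb, Atf3, Nr4a1 and Dusp1) and in 20.8% of the 32851 promoters of the table. The median GC content was 65.0% in the 8 promoters and 52.7% in all of them. The full palindrome TGACGTCA, which holds the half-site on both strands, was found in Dusp1 and in 1.79% of all promoters. The EGR site GCGNGGGCG was found in Fosb and Nr4a1, against 5.55% of all promoters, and the AP-1 site TGANTCA in none of the 8, against 7.81%. The promoters of 3 genes are shown because they held the most half-sites, with each half-site in capitals, for Fos (chr12:85473640-85473939, plus strand), Nr4a1 (chr15:101266596-101266895, plus strand) and Dusp1 (chr17:26508423-26508722, minus strand).
Fos: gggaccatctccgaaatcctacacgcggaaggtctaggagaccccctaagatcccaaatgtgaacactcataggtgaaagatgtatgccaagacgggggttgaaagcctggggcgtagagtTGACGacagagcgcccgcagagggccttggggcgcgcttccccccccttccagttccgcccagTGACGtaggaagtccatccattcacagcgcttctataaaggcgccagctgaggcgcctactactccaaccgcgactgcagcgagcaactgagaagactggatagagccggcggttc
Nr4a1: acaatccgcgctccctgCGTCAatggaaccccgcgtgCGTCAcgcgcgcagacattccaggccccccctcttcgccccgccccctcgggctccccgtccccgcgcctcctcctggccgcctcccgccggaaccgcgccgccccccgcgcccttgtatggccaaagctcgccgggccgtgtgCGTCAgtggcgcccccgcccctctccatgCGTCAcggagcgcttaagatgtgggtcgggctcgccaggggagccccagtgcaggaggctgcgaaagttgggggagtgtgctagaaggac
Dusp1: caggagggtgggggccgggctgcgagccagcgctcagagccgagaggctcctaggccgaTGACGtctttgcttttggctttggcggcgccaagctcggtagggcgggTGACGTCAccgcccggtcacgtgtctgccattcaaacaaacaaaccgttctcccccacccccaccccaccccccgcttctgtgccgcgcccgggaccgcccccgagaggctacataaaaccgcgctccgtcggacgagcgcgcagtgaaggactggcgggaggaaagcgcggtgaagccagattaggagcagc
The Nr4a1 promoter held 4 half-sites, that of Dusp1 held 3, of which a pair overlap in the palindrome, and that of Fos held 2. A match says only that these letters are present in the window.

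A second sequence feature lay at the other end of the transcripts. The pentamer ATTTA, the core of the AU-rich elements that speed mRNA decay, occurred on the sense strand of the 3′ UTR of 9 of the 10 genes, and of 62.1% of 20508 protein-coding genes. Dusp1 (5.80 per kb), Nr4a1 (5.52), Fos (4.91) and Junb (4.12) held the most ATTTA per kb of 3′ UTR, and Ier2 held none. The median was 2.89 per kb over the 10 genes and 1.15 per kb over all protein-coding genes. The longer element TTATTTATT was present in Fos once and in Dusp1 at 2 positions, against 6.96% of all genes. These counts describe 1 transcript per gene, with no value from the cells.

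The matrix held 58624795 UMIs of 20351 cells, with a median of 1960 UMIs a cell. After a filter, 16317 of 19488 cells passed a marker gate, and 25 types with at least 50 cells are described, from 56 plasma-like to 2398 other T-like cells. None of the 10 genes was a marker. Each type is called by the markers of its gate, so a lead of these markers follows from the gate and is no check on the name. Sftpc, a marker of the ATII gate, reached 113579 CPM (UMIs per 1000000 UMIs of the type) in ATII-like cells. It held 20.2 to 278 CPM in the types outside the epithelium. Mcpt8 and Prss34, also gate markers, led the basophil- or mast-like cells. Other endothelial-like cells, those left without a vessel type, were led by Ccl21a and Vwf. By these gates, the digested tumors gave alveolar epithelial, endothelial, stromal, myeloid and lymphoid cells. A TdTomato UMI was found in 98.9% of ATII-like cells, but also in 94.4% of alveolar macrophage-like and 23.0% of general capillary-like cells. Median depth ran from 897 UMIs in neutrophil-like to 6200 in plasma-like cells, and the median mitochondrial share from 0.470% in neutrophil-like to 7.18% in B-like cells.

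At least 1 UMI of every gene was counted in all 25 types, with only 1 for Atf3 in basophil- or mast-like cells. The summed level differed widely between types. Basophil- or mast-like cells, the tissue granulocytes of type 2 responses, stood highest at 17960 CPM (17459 to 18472), or 29.2 UMIs per cell over 167 cells. Neutrophil-like cells followed at 14763 CPM (14598 to 14929) and stromal-like cells at 14694 CPM (14345 to 15049), and these intervals overlapped. The order by UMIs per cell was another, with 51.4 in alveolar macrophage-like, 50.2 in stromal-like and 17.7 in neutrophil-like cells. General capillary-like cells stood at 12272 CPM, alveolar macrophage-like cells at 9521 CPM and ATII-like cells, the commonest gated epithelial type, at 7716 CPM. The lowest CPM values were those of plasma-like cells, 2069 CPM (1923 to 2222), mature DC-like cells, 2848 CPM, and CD8 T-like cells, 3315 CPM. By UMIs per cell, NK-like cells were lowest at 6.32. Plasma-like cells held 13.4 UMIs per cell, above mature DC-like (12.7) and CD8 T-like cells (6.68). The UMI total of plasma-like cells includes the immunoglobulin transcripts Igha and Igkc, which were among the genes that led this type. The part of such transcripts in the plasma-like CPM values, here and below, was not tested. Median depth was 6200 UMIs in plasma-like, 4183 in mature DC-like and 1885 in CD8 T-like cells, the lowest in sum, and 1479 in basophil- or mast-like, 897 in neutrophil-like and 3477 in stromal-like cells, the highest. The part of depth in this order was not tested.

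**Figure D1:**
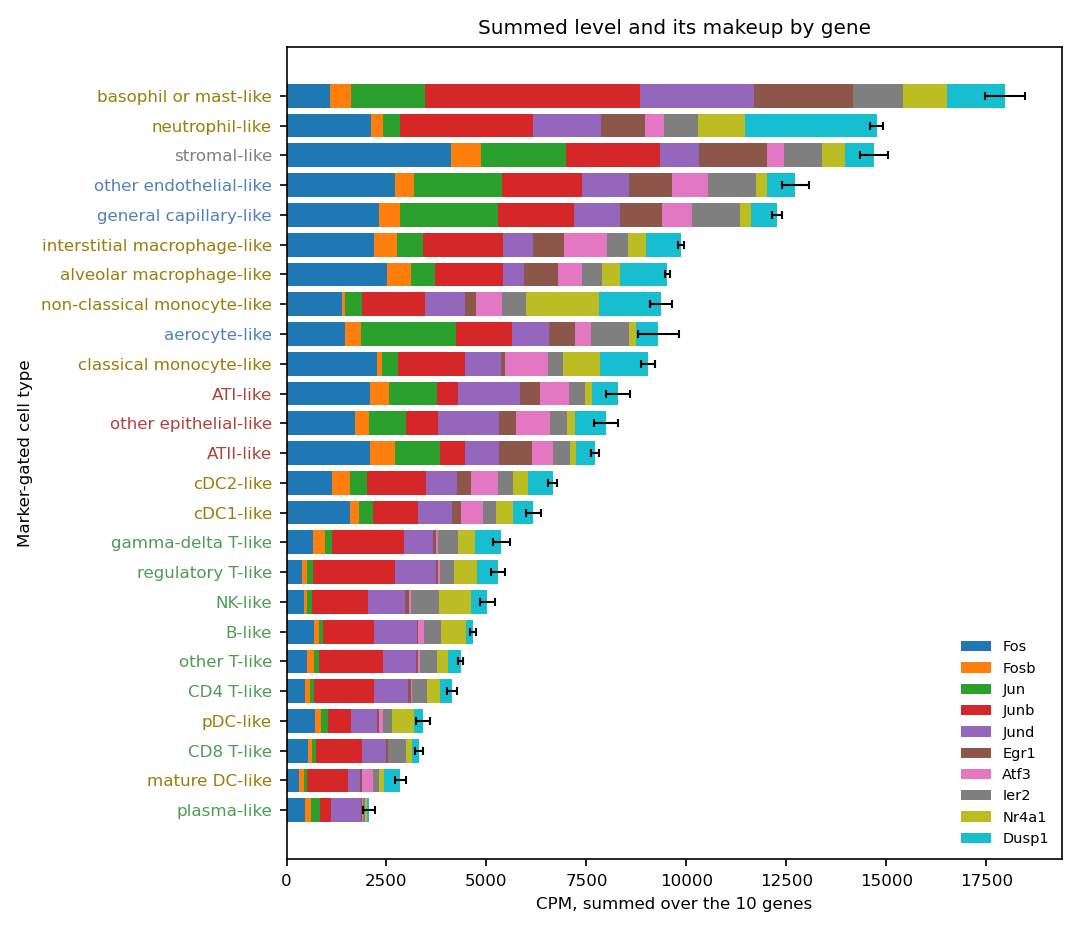
Bars give the level of the 10 genes in CPM of summed UMIs, stacked by gene, for 25 marker-gated cell types, with the exact 95% counting interval of the sum as whiskers and type names colored by compartment. The bar of basophil- or mast-like cells reaches 17960 CPM and is mostly Junb, Jund and Egr1, and that of plasma-like cells ends at 2069 CPM.

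Each type was next set against all other gated cells pooled, and a gene was called past a 2-fold difference where either side reached 20 CPM. The 10 genes in 25 types gave 250 pairs, of which 22 (8.80%) were higher and 79 (31.6%) were lower. Over all features the same rule called 13.1% of 161699 pairs higher and 23.5% lower. The share of high calls was thus lower, and that of low calls higher, for the 10 genes than over the table. Pairs of the same gene are not independent, and the difference between these shares was not tested. A feature below 20 CPM in the other pooled cells was counted only in types where it reached 20 CPM. All features were not matched to the 10 genes by level, so no property of the group is read from these shares. Every one of the 10 differed at least 10-fold between its highest and its lowest type, and the share of all genes that did so was not counted. The median range was 4.37 on the log2(CPM + 10) scale, against 2.37 over 10839 genes that reached 20 CPM in a type. The range of Jund exceeded that of 74.7% of these genes, and that of Atf3 97.1%. Genes near 20 CPM cannot range widely on this scale, and the part of level in this contrast was not tested.

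**Figure D2:**
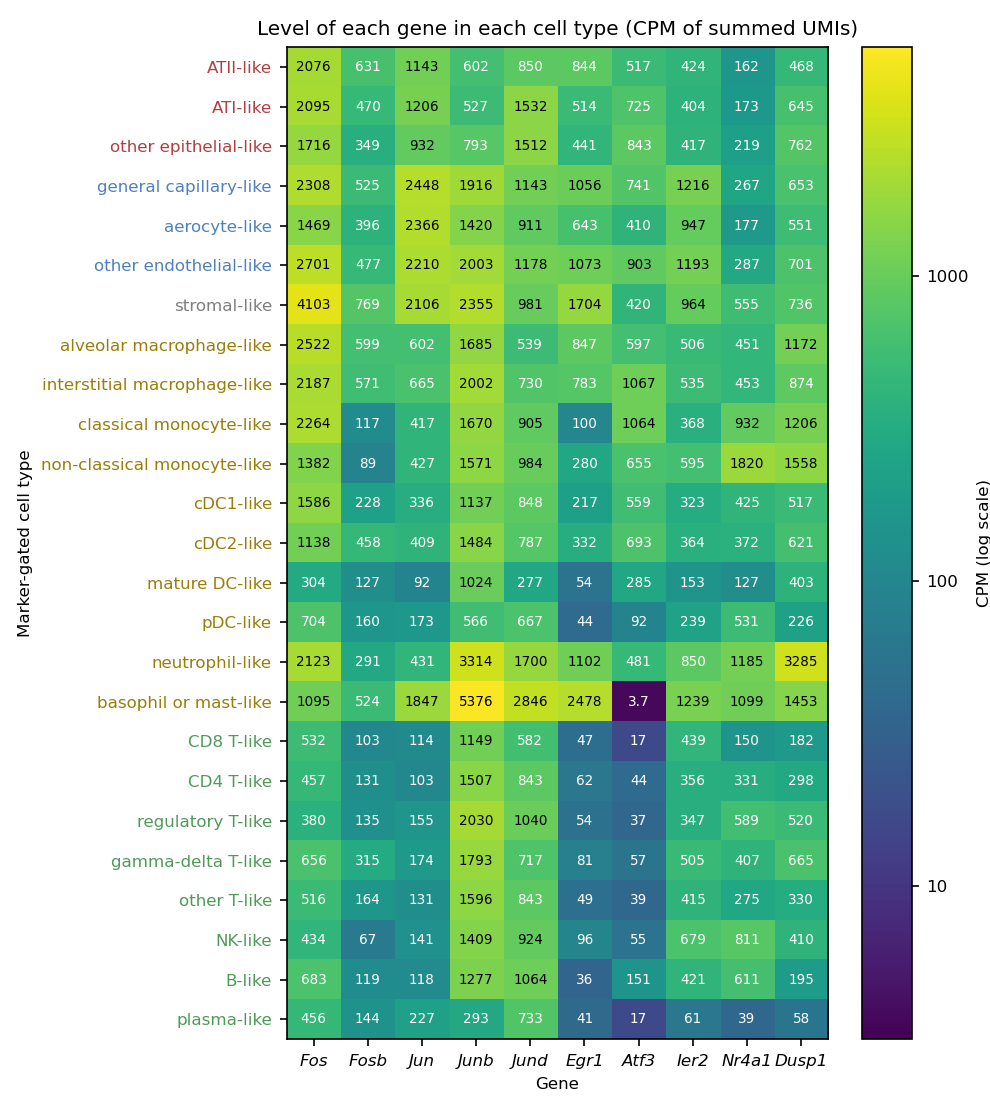
Rows are the 25 marker-gated cell types, columns are the 10 genes, and each cell prints the level in CPM of summed UMIs over a color on a log scale. Each lymphoid row is darker for Jun, Egr1 and Atf3 than for Junb. Junb levels in these rows run from 293 CPM in plasma-like to 2030 CPM in regulatory T-like cells. The darkest cell is Atf3 in basophil- or mast-like cells.

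Fos, the founding AP-1 partner gene, ran from 304 CPM (263 to 351) in mature DC-like cells over a median of 1382 CPM to 4103 CPM (3920 to 4293) in stromal-like cells. Only the stromal-like value was called higher, while 10 types were called lower: all 8 lymphoid types, mature DC-like and pDC-like cells. The next values below stromal-like cells, 2701 CPM in other endothelial-like and 2522 CPM in alveolar macrophage-like cells, did not differ beyond their intervals. From general capillary-like (2308 CPM) to ATII-like cells (2076 CPM), the order ran through 6 types of 3 compartments with neighbors that overlapped throughout. Of the 24 neighboring pairs in the order of Fos levels, 18 overlapped.

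Fosb, the paralog of Fos, also peaked in stromal-like cells at 769 CPM (691 to 854), with a median of 291 CPM and a low of 66.8 CPM (47.5 to 91.4) in NK-like cells. ATII-like (631 CPM), alveolar macrophage-like (599 CPM) and interstitial macrophage-like cells (571 CPM) came next. Both monocyte types were called lower for Fosb, at 117 CPM (98.6 to 138) in classical and 88.9 CPM (63.5 to 121) in non-classical monocyte-like cells, although classical monocyte-like cells held 2264 CPM of Fos. The ratio of Fosb to Fos UMIs was 0.0516 in classical and 0.0643 in non-classical monocyte-like cells, and 0.238 in alveolar and 0.261 in interstitial macrophage-like cells. It was 0.304 in ATII-like and 0.479 in gamma-delta T-like cells. The pair of monocyte-like types thus had the lowest Fosb to Fos ratios of the 25 types.

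Jun, the principal partner of Fos, was highest in the vessel lining. It reached 2448 CPM (2394 to 2504) in general capillary-like, 2366 CPM (2120 to 2634) in aerocyte-like and 2210 CPM (2068 to 2358) in other endothelial-like cells, whose intervals overlapped. Stromal-like (2106 CPM) and basophil- or mast-like cells (1847 CPM) completed the 5 types called higher. ATI-like (1206 CPM) and ATII-like cells (1143 CPM) lay between these and the macrophages, at 665 CPM in interstitial and 602 CPM in alveolar macrophage-like cells. The lowest were CD4 T-like cells at 103 CPM (84.5 to 124) and mature DC-like cells at 92.4 CPM (70.1 to 119), which overlapped, and the median over types was 417 CPM. All 8 lymphoid types were called lower.

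Junb, which can dampen Jun-driven transcription, followed another order. Basophil- or mast-like cells held 5376 CPM (5103 to 5659) and neutrophil-like cells 3314 CPM (3236 to 3393), the pair called higher, over a median of 1507 CPM. Among lymphoid cells, only plasma-like cells were called lower, at 293 CPM (240 to 355), while regulatory T-like cells held 2030 CPM (1917 to 2148), as much as interstitial macrophage-like cells (2002 CPM). The 3 epithelial types were called lower, with 602 CPM (574 to 631) in ATII-like, 527 CPM (455 to 607) in ATI-like and 793 CPM in other epithelial-like cells. The ratio of Jun to Junb UMIs was 1.90 in ATII-like, 2.29 in ATI-like and 1.28 in general capillary-like cells. It was 0.0682 in CD4 T-like, 0.0763 in regulatory T-like, 0.0924 in B-like and 0.130 in neutrophil-like cells. Plasma-like cells lay between these at 0.774 (0.573 to 1.04), and other epithelial-like cells at 1.18 (0.992 to 1.39).

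Jund, the least inducible gene of the family, varied least with type. Its levels ran from 277 CPM (237 to 321) in mature DC-like cells over a median of 905 CPM to 2846 CPM (2649 to 3055) in basophil- or mast-like cells, the smallest log2 range of the 10 at 3.31. Only basophil- or mast-like and neutrophil-like cells (1700 CPM) were called higher and only mature DC-like cells lower. ATI-like cells held 1532 CPM (1408 to 1665) and ATII-like cells 850 CPM (817 to 884). The alveolar types were thus apart for Jund, as they were for Fosb, Egr1, Atf3 and Dusp1. They overlapped for Fos, Jun, Junb, Ier2 and Nr4a1.

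Atf3, the stress-induced ATF gene, had the widest range, with a log2 span of 6.30. It stood highest in interstitial macrophage-like cells, 1067 CPM (1042 to 1093), and classical monocyte-like cells, 1064 CPM (1008 to 1124), which overlapped and were both called higher. Other endothelial-like (903 CPM) and other epithelial-like cells (843 CPM) followed, and the median was 420 CPM. In basophil- or mast-like cells, the type with the highest Junb, Jund, Egr1 and Ier2, a single Atf3 UMI was counted in 167 cells, or 3.69 CPM (0.0934 to 20.5). T-like and NK-like cells held 16.5 to 56.6 CPM, and B-like cells 151 CPM (138 to 165), with intervals apart from those of all T-like types. Neutrophil-like cells, second in the summed level, held 481 CPM. With cells above the upper cut-offs kept, or with mitochondrial and ribosomal protein genes out of the total, classical monocyte-like cells passed interstitial macrophage-like cells as the highest.

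Egr1, a zinc finger gene induced with Fos, spanned 5.75 on the log2 scale. Basophil- or mast-like cells held 2478 CPM (2294 to 2672) and stromal-like cells 1704 CPM (1587 to 1828), the types called higher, and neutrophil-like (1102 CPM), other endothelial-like (1073 CPM) and general capillary-like cells (1056 CPM) followed. Lymphoid types held 36.2 CPM (29.9 to 43.4) in B-like to 96.0 CPM (72.5 to 125) in NK-like cells, pDC-like cells 43.9 CPM and mature DC-like cells 54.1 CPM. Classical monocyte-like cells, rich in Fos and Atf3, held 99.9 CPM (83.0 to 119), against 783 CPM in interstitial macrophage-like, 847 CPM in alveolar macrophage-like and 280 CPM (233 to 333) in non-classical monocyte-like cells. Classical monocyte-like cells were therefore low in both Egr1 and Fosb, while the macrophage types were not. Non-classical monocyte-like cells were called lower for both, but their Egr1 level was the median of the 25 types. In all, 13 types were called lower for Egr1, the most of any of the 10.

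Ier2, a short-lived nuclear protein, reached 1239 CPM (1110 to 1379) in basophil- or mast-like cells, 1216 CPM (1177 to 1255) in general capillary-like and 1193 CPM (1089 to 1303) in other endothelial-like cells, the 3 types called higher. These intervals overlapped, and the highest type changed to general capillary-like cells under 1 of 7 alternatives. T-like types held 347 to 505 CPM and NK-like cells 679 CPM (613 to 749), above the 424 CPM of ATII-like cells. Only pDC-like, mature DC-like and plasma-like cells were called lower, the last at 60.8 CPM (38.1 to 92.1).

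Nr4a1, an orphan receptor needed for the survival of non-classical monocytes and induced by antigen receptors in lymphocytes, was highest in non-classical monocyte-like cells, 1820 CPM (1697 to 1949). Neutrophil-like (1185 CPM), basophil- or mast-like (1099 CPM) and classical monocyte-like cells (932 CPM) were also called higher, and the median was 407 CPM. NK-like cells held 811 CPM (739 to 887), B-like cells 611 CPM (584 to 639) and regulatory T-like cells 589 CPM (529 to 654), against 331 CPM (297 to 367) in CD4 T-like and 150 CPM (130 to 173) in CD8 T-like cells. The epithelial types were low, from 162 CPM in ATII-like to 219 CPM in other epithelial-like cells, and plasma-like cells lowest at 38.7 CPM (21.2 to 65.0). Louvain clusters gave no non-classical monocyte-like cluster, and neutrophil-like cells then led; the other 6 alternatives kept the highest type.

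**Figure D3:**
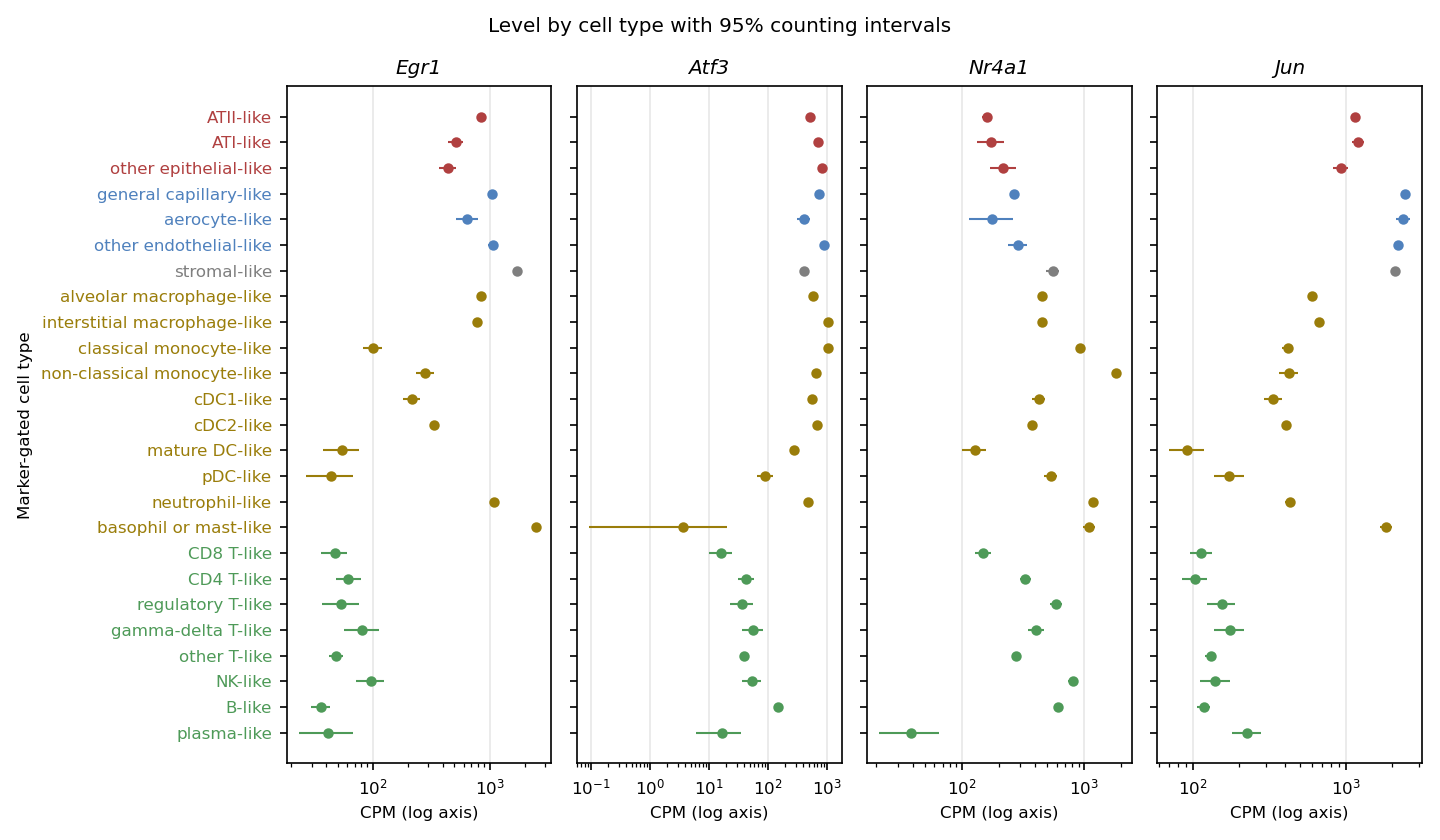
Points give CPM on a log axis with exact 95% Poisson intervals for Egr1, Atf3, Nr4a1 and Jun in 25 marker-gated cell types, colored by compartment as the type names are. Endothelial points lead for Jun, non-classical monocyte-like cells lead for Nr4a1 at 1820 CPM, and basophil- or mast-like cells lead for Egr1 and are last for Atf3.

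Dusp1, the MAP kinase phosphatase and the only enzyme of the group, was highest in neutrophil-like cells at 3285 CPM (3208 to 3364), the single type called higher. Non-classical monocyte-like cells held 1558 CPM (1444 to 1677), basophil- or mast-like cells 1453 CPM (1313 to 1604), which overlapped, and the median was 621 CPM. Among lymphocytes, gamma-delta T-like (665 CPM, 592 to 746) and regulatory T-like cells (520 CPM, 464 to 582) lay above CD4 T-like (298 CPM) and CD8 T-like cells (182 CPM), and plasma-like cells were lowest at 58.1 CPM (36.0 to 88.8). ATII-like cells held 468 CPM (444 to 494), below the 645 CPM (565 to 733) of ATI-like cells.

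Pooled by compartment, the lymphoid cells stood apart from the others. Their 6540 cells held 4357 CPM of the 10 genes, 0.449-fold (0.445 to 0.453) the level in all other gated cells. Egr1 (0.0638-fold), Atf3 (0.0972-fold), Jun (0.151-fold), Fos (0.253-fold), Fosb (0.275-fold) and Dusp1 (0.280-fold) were called lower, 6 of 10 against 27.1% of 6431 genes, and none was called higher, against 8.93%. Jund (1.06-fold), Nr4a1 (0.837-fold), Junb (0.822-fold) and Ier2 (0.706-fold) were not called. The median log2 ratio of the 10 genes was -1.85, and that of all genes tested was -0.27. With mitochondrial and ribosomal protein genes taken out of the total, the sum stood at 0.594-fold and the same 6 genes were called.

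In endothelial cells (1824 cells, 12278 CPM in sum), Jun was 4.73-fold (4.61 to 4.84) and Ier2 2.49-fold (2.41 to 2.57) the level of the other gated cells. These 2 of 10 genes were called higher, against 21.9% of 7056 genes, and none was called lower, against 15.9%. In the 134 stromal-like cells (14694 CPM), Jun (3.21-fold), Egr1 (2.92-fold) and Fos (2.37-fold) were higher, 3 of 10 against 20.6% of 7107 genes, and none was lower, against 20.1%. In myeloid cells (6926 cells, 9491 CPM), Dusp1 (2.84-fold) and Atf3 (2.28-fold) were higher, 2 of 10 against 17.9% of 6567 genes, with none lower, against 14.7%. Atf3 was not called there when cells above the upper cut-offs were kept or when mitochondrial and ribosomal protein genes left the total. In epithelial cells (893 cells, 7942 CPM), Junb (0.358-fold) and Nr4a1 (0.350-fold) were lower, 2 of 10 against 23.8% of 6759 genes, and none was higher, against 16.9%; Jun was 1.84-fold and Dusp1 0.588-fold. With 10 genes, the shares called in these 4 compartments could not be set apart from the shares over all genes.

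Other genes of the same response were taken from lists of known genes. Of 35 other immediate-early genes measured, 13 were higher and 8 lower in endothelial, 9 and 5 in stromal-like, 8 and 9 in myeloid, 1 and 17 in lymphoid and 1 and 22 in epithelial cells. The share called lower was 62.9% in epithelial cells, against 23.8% of all genes, and 48.6% in lymphoid cells, against 27.1%. The share called higher was 37.1% in endothelial cells, against 21.9%, and 22.9% in myeloid cells, against 17.9%. In the same 2 compartments, 22.9% were lower, against 15.9%, and 25.7%, against 14.7%. The median log2 ratio of the list was -1.35 in epithelial cells (all genes, -0.19), -0.95 in lymphoid cells (-0.27) and 0.10 in endothelial cells (0.23). Epithelial cells thus held 4062 CPM of these genes in sum, below the 7026 CPM of lymphoid cells, the opposite of the order for the 10 genes. Of these 35, Ier3, an inhibitor of cell death, ranged most, from 2.26 CPM (1 UMI) in gamma-delta T-like to 6711 CPM in basophil- or mast-like cells, followed by other endothelial-like cells at 2132 CPM. Cebpd, a bZIP factor of acute-phase responses, was highest in other endothelial-like cells (1397 CPM), and Id2, an inhibitor of helix-loop-helix factors, in mature DC-like cells (1100 CPM), the type with the lowest Fos, Jun and Jund.

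Of the other AP-1 and bZIP genes, 5 of 12 (41.7%, against 17.9% of all genes) were higher and 1 lower in myeloid cells, and 2 of 11 higher and 4 lower (36.4%, against 27.1%) in lymphoid cells. Of 10 tested in each of the other compartments, 4 were lower and none higher in epithelial, 3 lower and 1 higher in endothelial, and 2 lower and 1 higher in stromal-like cells. In the same order, 23.8%, 15.9% and 20.1% of all genes were lower, and 16.9%, 21.9% and 20.6% higher. The median log2 ratio was 0.35 in myeloid cells, where that of all genes was 0.01. Maf, a bZIP factor, was highest in gamma-delta T-like cells (557 CPM) and Fosl2, the Fos relative that is induced late, in neutrophil-like cells (769 CPM). Of the MAP kinase phosphatases and feedback genes, 6 of 12 were higher (against 20.6% of all genes) and 4 lower in stromal-like cells, 5 of 12 higher (41.7%, against 21.9%) and 3 lower in endothelial cells, and 4 of 10 higher and 4 lower in epithelial cells. In myeloid cells 1 of 10 was higher and 4 were lower, and in lymphoid cells 2 of 8 were higher and 5 lower (62.5%, against 27.1%). Over all genes, the shares higher were 17.9% in myeloid, 8.93% in lymphoid and 16.9% in epithelial cells. The shares lower were 14.7% in myeloid, 23.8% in epithelial, 20.1% in stromal-like and 15.9% in endothelial cells. The median log2 ratio of the list was 0.68 in stromal-like (all genes, 0.03) and -2.03 in lymphoid cells (-0.27). Dusp5, the ERK phosphatase, was highest in basophil- or mast-like cells (1899 CPM) with NK-like cells second (504 CPM), Dusp2 in NK-like cells (327 CPM) and Dusp3 in aerocyte-like cells (445 CPM). Dusp3 had no UMI in basophil- or mast-like cells, which allows up to 11.1 CPM. None of these 3, the genes of the list with the widest range, was highest in neutrophil-like cells, where Dusp1 was.

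Heat-shock and chaperone genes belong to another arm of the stress response. None was higher in lymphoid or myeloid cells and 4 were lower in each, of 15 and 14 tested (26.7%, against 27.1% of all genes, and 28.6%, against 14.7%). In endothelial cells 5 of 14 were higher (35.7%, against 21.9%), in stromal-like cells 5 of 15 (33.3%, against 20.6%) and in epithelial cells 3 of 14 (21.4%, against 16.9%), with none lower. Dnaja1, a co-chaperone, reached 3599 CPM in basophil- or mast-like cells, with NK-like cells second (824 CPM), and Dnajb1 848 CPM against 128 CPM in general capillary-like cells. Hspb1, a small heat-shock protein, was highest in aerocyte-like cells (855 CPM) and had no UMI in gamma-delta T-like cells, which allows up to 6.79 CPM. Among upstream kinases and serum response factors, 5 of 17 were higher in endothelial cells (29.4%, against 21.9%) and none lower, and 4 of 13 were lower in lymphoid cells (30.8%, against 27.1%) and none higher. Epithelial cells gave 4 of 13 lower and none higher, stromal-like cells 2 of 16 lower and none higher, and myeloid cells 3 of 15 higher and 1 lower. Several of these shares lie near those of all genes, and no list was tested against them. Mapk3, which encodes the kinase ERK1, was highest in aerocyte-like (346 CPM) and general capillary-like cells (326 CPM), Elk3 in general capillary-like (223 CPM) and Mapk14, the p38 kinase gene, in neutrophil-like cells (176 CPM).

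Across the 25 types, the profiles of the 10 genes were related to unequal degrees. Pearson's r of the log levels was highest for Jun and Egr1 (0.90) and lowest for Fosb and Nr4a1 (-0.12), and it was 0.74 for Fos and Fosb and 0.83 for Fos and Jun. Types share a matrix and a dissociation, so these values describe the profiles and carry no test. Of 7084 other genes with at least 50 CPM in a type, those most like the mean profile were Csnk1e (r = 0.86), Ier3 (0.85), Cebpd (0.84), Svil (0.84), Rab7 (0.83), Midn (0.82), Ctdsp2 (0.81), Ddx3x (0.80), Sntb2 (0.80) and Klf10 (0.80). Ier3, Cebpd and Klf10 stood on the list of other immediate-early genes, while Csnk1e encodes a casein kinase, Rab7 a GTPase of late endosomes and Ddx3x an RNA helicase. By CPM, all but Csnk1e and Ier3 were lowest in plasma-like cells.

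In single cells thinned to 1000 UMIs, the genes were found together in many cells of some types and in few of others. Of 14181 cells deep enough, 38.8% (38.0 to 39.6) held at least 5 of the 10 genes, and 61.3% of 16317 cells did before thinning. The share was 76.8% (69.3 to 83.2) of basophil- or mast-like, 75.2% (66.5 to 82.6) of stromal-like, 72.7% (69.2 to 76.0) of neutrophil-like and 70.1% (67.6 to 72.5) of general capillary-like cells. It was 43.6% (39.6 to 47.6) in ATII-like, 23.4% in regulatory T-like, 9.70% in other T-like, 5.72% (4.02 to 7.86) in CD8 T-like and 1.85% in plasma-like cells. Before thinning these shares were 86.2% in basophil- or mast-like, 82.1% in stromal-like, 74.7% in neutrophil-like, 82.9% in general capillary-like, 77.3% in ATII-like and 23.6% in CD8 T-like cells. Neutrophil-like cells lost the most to the depth limit, with 703 of 1733 cells kept. Before thinning the plasma-like share was 30.4%, above that of CD8 T-like cells. No cell type is known to lack these genes, so the plasma-like share stands as the lowest measured at 1000 UMIs and not as a background of free RNA.

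**Figure D4:**
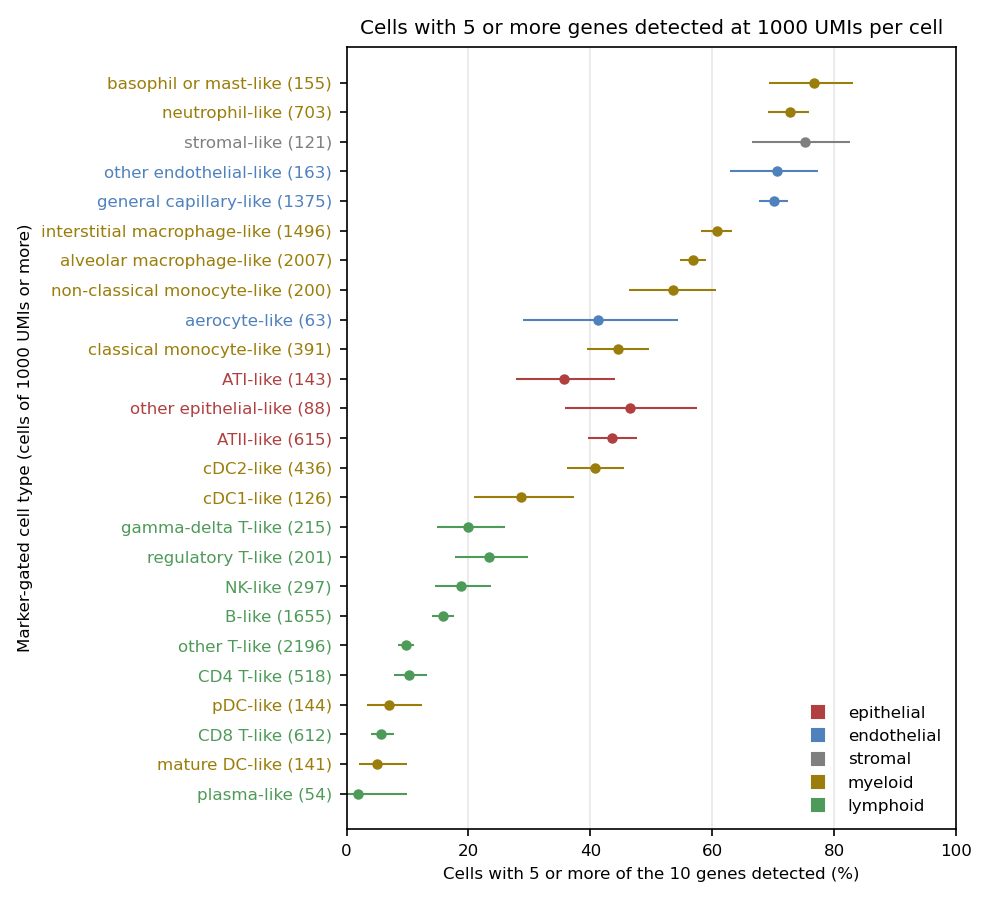
Points give the percent of cells with at least 5 of the 10 genes detected at 1000 UMIs per cell, with exact 95% binomial intervals, and the number of cells kept stands beside each type. Types are in the order of the summed level, and values fall from 76.8% in basophil- or mast-like to 1.85% in plasma-like cells.

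The share of cells with a UMI differed by gene within a type as the levels did. At 1000 UMIs, Junb was found in 97.4% of basophil- or mast-like and 89.0% of neutrophil-like cells, Jun in 83.6% of general capillary-like cells and Nr4a1 in 77.5% of non-classical monocyte-like cells. Fos was found in 81.8% (73.8 to 88.2) of stromal-like, 68.3% (64.5 to 72.0) of ATII-like and 19.9% (13.6 to 27.4) of mature DC-like cells, and before thinning in 83.6%, 82.4% and 49.6%. The tenth of ATII-like cells with the most Fos held 33.4% of its UMIs, that of other T-like cells 60.2% and that of stromal-like cells 27.8%. The mean thinned Fos UMIs per cell were 1.99, 0.533 and 4.28 in the same order. Such a share rises as the mean falls, and the part of level in it was not tested. The Fano factor, the variance over the mean of thinned UMIs, was taken for genes with a mean of at least 0.1 UMI per cell in the type, which kept 4 of the 10 genes in plasma-like, 7 in CD4 T-like and NK-like, 8 or 9 in 10 other types and all 10 in the rest. Its median over the genes kept ran from 1.24 in CD8 T-like (8 genes) to 2.48 in basophil- or mast-like cells (9 genes), and the median over all genes that passed the same limit from 1.04 to 1.19. All genes were not matched to the genes kept by mean level, and the part of level in this contrast was not tested.

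Within a type, cells with a UMI of 1 gene tended to hold UMIs of the others. Jun was found in more of the cells with a Fos UMI than of those without in 23 of 24 types. The intervals were apart in 8 of these. Over all gated cells, the shares were 42.4% (41.3 to 43.5) with and 17.5% (16.6 to 18.5) without, and differences between types enter these. Among ATII-like cells these shares were 64.8% (60.0 to 69.3) and 28.7% (22.5 to 35.6), and among stromal-like cells 79.8% (70.5 to 87.2) and 22.7% (7.82 to 45.4). Alveolar macrophage-like cells gave 41.1% and 22.5%, and interstitial macrophage-like cells 43.1% and 24.3%, with intervals apart in both. In basophil- or mast-like cells the shares were 61.3% (48.1 to 73.4) and 55.9% (45.2 to 66.2), in non-classical monocyte-like cells 33.6% and 28.2%, in gamma-delta T-like cells 11.3% and 10.4%, and in mature DC-like cells, where the order was turned, 3.57% and 13.3%, and each pair overlapped. The intervals of these types are wide, so that a difference as large as in macrophage-like cells was not detectable in all of them.

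**Figure D5:**
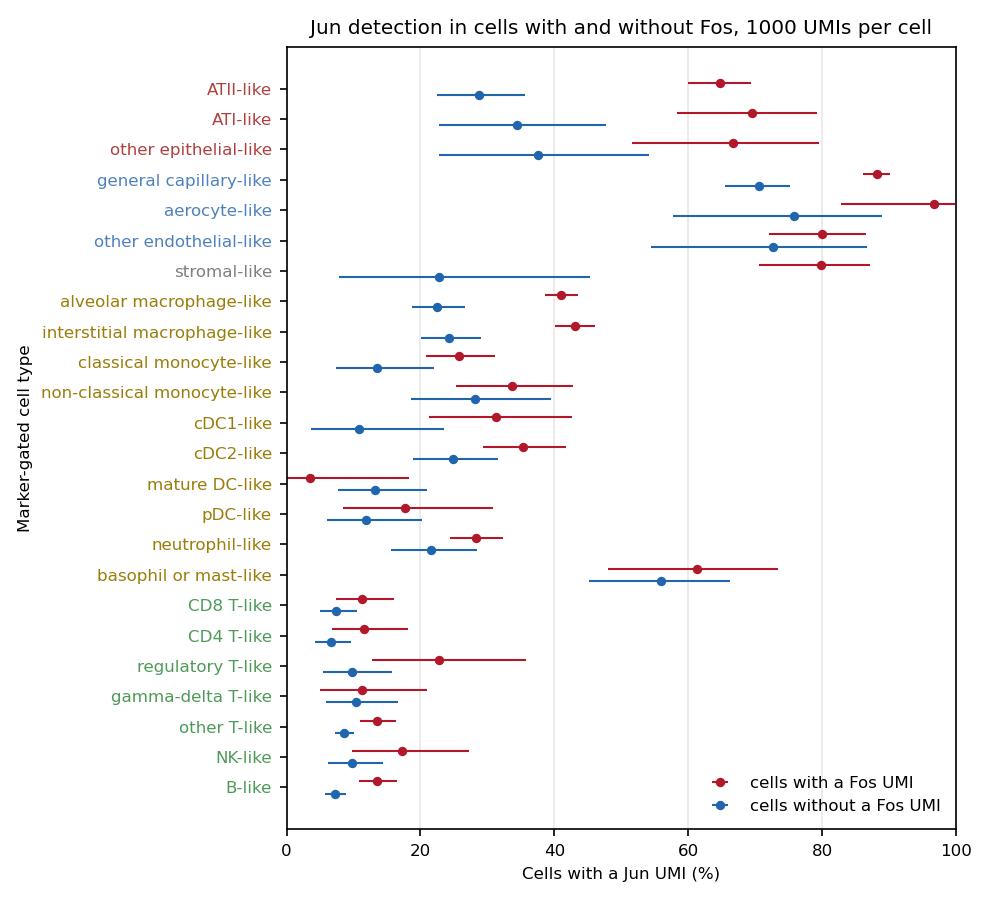
Red points give the percent of cells with a Jun UMI among cells with a Fos UMI, and blue points the same among cells without, at 1000 UMIs per cell and with exact 95% binomial intervals, by marker-gated cell type (plasma-like cells had too few with Fos to be shown). Red lies right of blue by 36.0 percentage points in ATII-like and 57.1 in stromal-like cells, and the intervals overlap in basophil- or mast-like cells.

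Of the 45 pairs of the 10 genes, 44 had the second gene in more of the cells with the first than of those without, with separate intervals, in the pooled gated cells, where differences between types enter. Within types, the same held for 43 of 45 pairs in general capillary-like cells, 35 in ATII-like and 32 in alveolar macrophage-like cells. The opposite order with separate intervals was seen for 3 pairs, each with Nr4a1. Nr4a1 was found in 28.7% (25.4 to 32.1) of alveolar macrophage-like cells with a Jun UMI and in 36.6% (33.9 to 39.3) of those without. In basophil- or mast-like cells it was found in 41.9% (33.1 to 51.1) of cells with Egr1 and 71.0% (52.0 to 85.8) of those without, and in B-like cells in 32.2% (23.8 to 41.5) of cells with Atf3 and 45.1% (42.6 to 47.7) of those without. The median difference over pairs was 18.1 percentage points in ATII-like, 11.8 in general capillary-like, 9.35 in alveolar macrophage-like and 6.74 in neutrophil-like cells. Neutrophil-like cells gave 10 pairs with co-detection at separate intervals, other T-like cells 21 and CD8 T-like cells 1 of 36. By pair, Atf3 and Fos had a median difference of 15.0 percentage points over 16 types and Egr1 and Fos one of 16.9 over 20 types, whereas Ier2 and Nr4a1 had one of 0.913 over 23 types. The cells of 4 mice are mixed within each type, so a difference between mice and a difference between cells of 1 mouse cannot be told apart in these values.

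Other genes also moved with the 10 from cell to cell. Of 1925 genes found in at least 5% of cells of enough types, those with the highest mean within-type correlation were Zfp36 (mean r = 0.27), Btg2 (0.23), Nfkbia (0.21), Ier3 (0.19), Klf6 (0.18), Klf2 (0.18), Nfkbiz (0.17), Ier5 (0.16), Socs3 (0.16) and Tnfaip3 (0.15). All 10 of these stood on the list of other immediate-early genes, which was chosen with earlier results of these data known and is no independent evidence. Zfp36 encodes a protein that binds AU-rich elements and speeds mRNA decay, and Nfkbia, Nfkbiz and Tnfaip3 belong to NF-kB signaling. Zfp36 was positive in 24 of 25 types, from -0.04 to 0.52 in other epithelial-like cells. These correlations of sparse counts are weak and are given as a description, and the median over all 1925 genes was close to 0.

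The summed level also moved with measures of cell quality. Cells of each type were split into 3 equal groups by mitochondrial share, and the group with the highest share held 0.845 times the level of the group with the lowest in the median type. The ratio was 0.556 in ATI-like cells (6266 CPM against 11275 CPM), 0.575 in stromal-like cells (10232 CPM against 17780 CPM) and 1.34 in gamma-delta T-like cells, and 7 of 25 types were higher in the group with the highest share. Split by UMIs per cell, the ratio of the deepest to the shallowest group was 0.909 in the median type, 0.456 in regulatory T-like cells (4024 CPM against 8829 CPM) and 1.91 in plasma-like cells. In neutrophil-like cells it was 0.697, and in basophil- or mast-like cells 0.658. ATII-like cells held 35548 CPM of the nuclear transcript Malat1, and ATI-like cells 103896 CPM. The part of these measures in the levels of the 10 genes was not tested.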

How the data were processed

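Cells of lung tumors from 4 mice were profiled by droplet 3′ single-cell RNA-seq. The authors made the deposited count table, whole UMI counts per gene and cell that are not normalized, with Cell Ranger on mm10 with reporter sequences added (submitters' processing notes and the study's methods); cells are not paired with mice. The table was read as 1 sample. Cells with at least 200 genes and at or below the 98th percentile of genes (2713) and mitochondrial share (13.4%) were kept, and gated by 27 marker lists (at least 2 markers, score of 0.2, gap of 0.08; none of the 10 genes is a marker). UMIs were summed per type and given as CPM, with exact Poisson intervals, exact binomial (Clopper-Pearson) intervals for shares and exact conditional intervals for ratios. These are counts of 3′ tags, not scaled by length, so levels are compared across types and not between genes. Cells were thinned to 1000 UMIs for shares, Fano factors and correlations. Doublets stayed in; Scrublet called 0.892% of 20299 cells and was an alternative. Free RNA was not removed.

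No model was fitted and no p-value is given. A call is a ratio of at least 2 with 20 CPM on either side, checked on simulated counts. The design had fixed pooled sums for these counts. Named besides the 10 genes are, from each of 5 lists, the 3 genes with the widest log2(CPM + 10) range over types, the 10 genes most correlated with the mean profile over types, and the 10 with the highest mean correlation over thinned cells within types. A gene was correlated over types where it reached 50 CPM, and over cells where at least 5% of thinned cells held it in enough types. Some items that this rule names, or that the labels give, are not reported here. The 10 genes and the lists were chosen with earlier results of these data known. Positions and 3′ UTRs came from GENCODE vM21 and promoters from RefSeq. Analyses used Python 3.11.15, numpy 2.4.6, scipy 1.17.1 and scanpy 1.11.5.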

Additional observations from a re-analysis of the deposited data

How the results depend on the processing

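Levels per gene and type stayed within their counting interval in 1343 of 1740 values over 7 alternatives, and 70 moved by over 1.5 times, 60 of them where mitochondrial and ribosomal protein genes left the total. That total gave summed levels of 10381 CPM in epithelial, 16537 in endothelial, 19144 in stromal, 12529 in myeloid and 7619 in lymphoid cells, the removed genes taking the largest share of the total in lymphoid cells. The mean of per-cell CPM gave 7794, 12010, 14217, 10972 and 4671 CPM in the same order. Louvain clusters gave 9221 CPM in myeloid and 4476 CPM in lymphoid cells, no cluster of non-classical monocyte-like cells, and Egr1 at 524 CPM in cDC2-like cells. The stricter gate gave 9650 CPM in myeloid cells, a minimum of 500 genes 9276 CPM, and no upper cut-offs 9334 CPM in myeloid and 12700 CPM in endothelial cells. The pairs called higher numbered 18 to 24. Jun was found in 42.9%, 42.5%, 45.0%, 40.1% and 41.6% of cells with Fos, and in 19.6%, 18.7%, 19.9%, 19.0% and 18.2% of cells without, under the minimum of 500 genes, no upper cut-offs, the stricter gate, Louvain clusters and Scrublet. At 500 UMIs these shares were 30.3% and 14.1%, at 2000 UMIs 57.3% and 27.7%, and without thinning 57.0% and 20.9%, with the same order in each. Of 1990 shares per gene and type, 1268 stayed within their interval and 418 moved by over 1.5 times, most of them under another depth. No paired analysis was possible because cells are not assigned to mice, and no mouse could be left out for the same reason. Depth limits the rarest values: Atf3 in basophil- or mast-like cells rests on 1 UMI, and 897 UMIs in the median neutrophil-like cell kept 703 of 1733 cells at 1000 UMIs.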

Other observations

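A pair of gated types held too few cells to be described with the others. The 22 ciliated- or club-like cells, the airway epithelium, gave 12049 CPM (11448 to 12673) of the 10 genes in sum, and 7716 CPM was measured in ATII-like cells. Atf3 stood at 1793 CPM (1566 to 2044) and Fos at 3363 CPM (3049 to 3700) there, while Nr4a1 was low at 200.1 CPM (130 to 295), as in the alveolar epithelial types. The 47 larger-vessel endothelial-like cells gave 14268 CPM (13625 to 14932) in sum, above the 12272 CPM of general capillary-like cells with intervals apart. Fos at 3165 CPM (2866 to 3486) and Atf3 at 1140 CPM (963 to 1339) were higher there than in general capillary-like cells, and Jun at 2187 CPM (1940 to 2456) and Ier2 at 1217 CPM (1034 to 1422) overlapped with them. Cells of an unknown number of mice lie behind each of these values.

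The 3171 cells that passed no gate gave 6850 CPM (6794 to 6907) of the 10 genes at a median of 1742 UMIs, between ATII-like and cDC2-like cells.

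Among genes chosen after their values were seen, those with negative mean correlations with the 10 genes from cell to cell included Gm10076 (-0.11), Rpl35 (-0.11), Rpl39 (-0.10) and Tmsb10 (-0.10). Rpl35 and Rpl39 encode ribosomal proteins. In cells thinned to a fixed total, a rise of 1 set of genes lowers the others by construction, and the part of this in the values was not tested.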
